A study of Mus musculus with 9 samples.

Results

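The expression of 10 genes that encode Polycomb proteins and other chromatin regulators linked to leukemia (Ezh1, Ezh2, Eed, Suz12, Bmi1, Cbx7, Asxl1, Kmt2a, Men1 and Dot1l) was compared between 3 mouse myeloid cell lines. They were chosen by gene symbol, for their roles in these complexes, and are 10 of the 54347 genes in the count table. All 10 passed the filter on low counts, as did 13082 genes in all. The Hox-WT and Hox-URE lines are progenitors derived from lineage-negative, c-Kit+ bone marrow cells by immortalization with Hoxb8-ER, a Hoxb8 fusion protein that needs estradiol to work. Hox-WT came from 1 wild-type mouse. Hox-URE came from 1 mouse of genotype UREd/d, in which the upstream regulatory element (URE) is deleted, an enhancer that drives Spi1 and so the transcription factor PU.1. URE-AML, labelled B22 and AML blast-like, was grown out of leukemic blasts with the same UREd/d genotype. Growth medium for all of them was IMDM with fetal calf serum, IL-3, IL-6, SCF and ß-estradiol. PolyA RNA of each line was sequenced in 3 stranded libraries. There is 1 line per genotype and stage. The labels do not say whether the libraries of a line were separate cultures, so every p-value measures only the spread between these libraries, which may be technical.

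Polycomb repressive complex 2 (PRC2) methylates lysine 27 of histone H3, a mark of silenced genes. EZH1 or EZH2 is its catalytic subunit, and EED and SUZ12 are required for its activity. Polycomb repressive complex 1 (PRC1) ubiquitinates histone H2A. BMI1 is one of its alternative PCGF subunits, and CBX7 is one of the CBX proteins that read the PRC2 mark. ASXL1 is a cofactor of BAP1 in PR-DUB, the complex that removes the PRC1 mark. KMT2A (MLL1) methylates lysine 4 of histone H3 and is held at HOX genes by menin, the product of Men1. DOT1L methylates lysine 79 of histone H3 at transcribed genes. In blood, EZH2 and ASXL1 are mutated in myeloid neoplasms, KMT2A is rearranged in acute leukemia, and BMI1 maintains the self-renewal of stem cells.

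Total counts were 20331064 to 28588718 per library. Levels are given as CPM, counts scaled to a common library total with TMM factors, and a floor of 3 counts stood at 0.104 to 0.153 CPM, which covers counting error only. Spi1 averaged 103 CPM for Hox-WT, 0.026 CPM for Hox-URE and 4.79 CPM for URE-AML. Hoxb8 had 0 counts in all 3 URE-AML libraries and averaged 65.8 CPM for Hox-WT and 132 CPM for Hox-URE. The sum of 5 progenitor markers was 5188 to 8105 CPM for Hox-WT, 832 to 1314 for Hox-URE and 446 to 504 for URE-AML. Of these, Ptprc, which encodes CD45, was at 152 to 170 CPM for Hox-WT, 0 counts for Hox-URE and 0 or 1 count for URE-AML. Cd34 averaged 1434 CPM for Hox-WT and 926 CPM for Hox-URE, and had 0 or 1 count in URE-AML libraries. Myb averaged 299, 167 and 177 CPM in the same line order, and Kit averaged 175, 43.0 and 97.0 CPM. The sum of 5 monocyte and macrophage markers was 293 to 301, 841 to 940 and 15.0 to 27.4 CPM in that order. Most of it came from Adgre1 for Hox-WT (mean 274 CPM) and from Ccr2 for Hox-URE (mean 885 CPM). The sum of 6 neutrophil markers was 106 to 137 CPM for Hox-WT, 5.03 to 7.15 CPM for Hox-URE and 4017 to 9117 CPM for URE-AML, and 2 of them, Ltf and S100a9, were at 0 in Hox-URE. The sum of 5 basophil and mast cell markers was 373 to 732 CPM for Hox-WT, 1404 to 5648 CPM for Hox-URE and 24.9 to 55.1 CPM for URE-AML. Fcer1a was at 0 in both Hox lines, most of the sum came from Cpa3 for the Hox lines and from Mcpt8 for URE-AML, and Mcpt8 averaged 8.56 CPM for Hox-WT, 83.8 CPM for Hox-URE and 32.5 CPM for URE-AML, an order unlike that of the sum. The part of these cell states in the levels given here was not tested. In these bulk samples, fewer cells of a type and less RNA per cell cannot be told apart.

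Comparing the Hox lines asks how progenitors without the URE differ from wild-type ones, and comparing URE-AML with each asks how the leukemic line differs from them. Bmi1 and Ezh2 were lower and Ezh1 was higher in Hox-URE than Hox-WT, and these differences were the ones called among the 10 genes. In URE-AML, Bmi1, Cbx7, Kmt2a and Asxl1 were called lower than Hox-WT. Calls required an adjusted p under 0.05 (edgeR's quasi-likelihood test, Benjamini-Hochberg over all genes tested) together with a fold change over 1.5. Of the 10 genes, 3 were called in Hox-URE versus Hox-WT, where 37.2% of all tested genes were called. Here 1 was higher, with a background of 21.3% of tested genes, and 2 were lower, with a background of 15.9%. In URE-AML versus Hox-WT, 4 were called, against 43.2% of tested genes, all of them lower, where 20.2% of tested genes were lower and 23% were higher. In URE-AML versus Hox-URE, 4 were called, against 42.7% of tested genes, with 1 higher (background 20.3%) and 3 lower (background 22.4%). The median log2 fold change of the 10 genes was -0.37, -0.41 and 0.03 in the same order, and that of all tested genes was 0.00 in each comparison. Libraries of the lines compared did not overlap for 7, 8 and 8 of the 10 genes, against 60.3%, 67.6% and 62.8% of tested genes. At any fold, 7, 7 and 8 of the 10 genes had an adjusted p under 0.05, where 53%, 57.7% and 58% of tested genes did. Set beside all tested genes, the 10 genes had smaller shares called with the directions pooled, and larger shares called lower, not overlapping, or past the p threshold at any fold. With 10 genes, a single gene moves each share by 10 percentage points, and these counts were not tested. Both comparisons with Hox-WT share its libraries, and both comparisons with Hox-URE share those of Hox-URE.

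**Figure D1:**
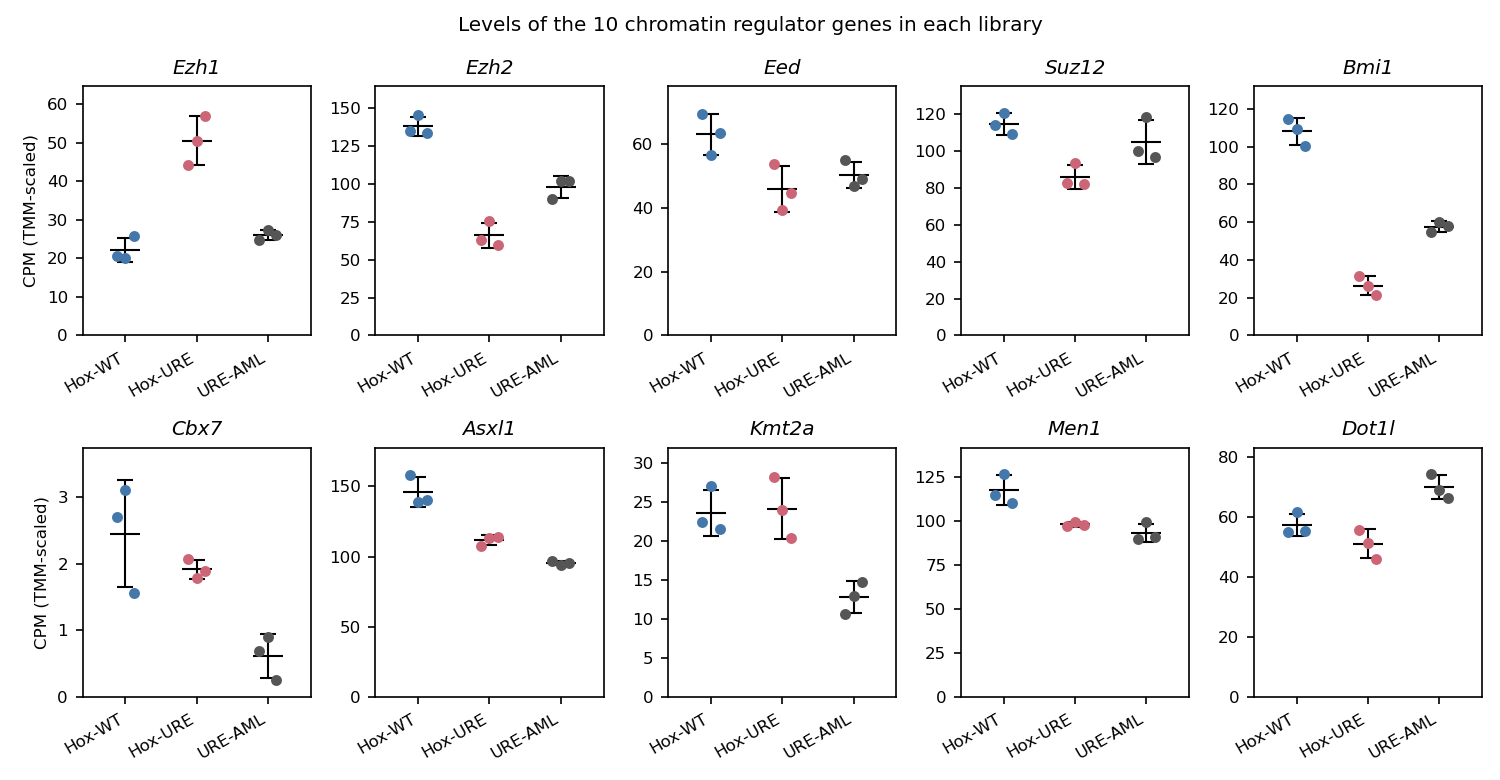
Levels of the 10 genes in each library, in CPM after TMM scaling, on linear axes that start at 0. Points are libraries (3 per line), long bars are line means and error bars are 1 SD. Bmi1 and Ezh2 were lowest and Ezh1 was highest in the 3 Hox-URE libraries, whereas Cbx7 and Kmt2a were lowest in the 3 URE-AML libraries.

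The promoters of Ezh2, Ezh1 and Bmi1, the genes called in Hox-URE versus Hox-WT, are printed here to show the sequence at the starts of the alternative catalytic subunits and of the called PRC1 gene. All 10 genes had an entry in the RefSeq promoter table (build GRCm38.p6), with 12 promoters in all because Men1 has 3. Each promoter spans 250 bases before and 50 after the start. The stretches printed are chr6:47595029-47595183 (minus strand) for Ezh2, chr11:101226452-101226713 (minus strand) for Ezh1 and chr2:18676768-18677029 (plus strand) for Bmi1. They run 5′ to 3′, capitals mark CCAAT (read as ATTGG from the other strand) in Ezh2 and CACGTG in Bmi1, and Ezh2 is cut short where another of its transcripts has an exon.
Ezh2: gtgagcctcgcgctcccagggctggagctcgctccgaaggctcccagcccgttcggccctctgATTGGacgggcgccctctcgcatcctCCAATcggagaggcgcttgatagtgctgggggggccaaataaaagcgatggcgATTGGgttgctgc
Ezh1: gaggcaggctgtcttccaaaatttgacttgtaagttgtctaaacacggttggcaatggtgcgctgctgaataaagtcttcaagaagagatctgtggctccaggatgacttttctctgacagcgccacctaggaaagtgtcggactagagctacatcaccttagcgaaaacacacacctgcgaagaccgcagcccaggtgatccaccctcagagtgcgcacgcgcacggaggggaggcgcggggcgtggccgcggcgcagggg
Bmi1: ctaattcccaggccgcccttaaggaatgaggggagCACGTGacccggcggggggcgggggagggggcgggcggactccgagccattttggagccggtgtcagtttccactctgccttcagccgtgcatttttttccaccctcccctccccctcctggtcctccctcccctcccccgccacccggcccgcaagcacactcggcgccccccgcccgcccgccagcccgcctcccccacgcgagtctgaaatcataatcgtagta
The whole promoters were searched on both strands for 5 motifs, and no match of one motif in the 10 genes overlapped a match of another. The 3 promoters of Men1 overlap, and their CCAAT matches are 1 site. The E2F letters TTTCGCGC or TTTGGCGC were in 0.813% of all 32851 promoters and, of the 10 genes, only in Ezh2, as TTTGGCGC from base 4 after its start. CCAAT was in 37.4% of all promoters and in those of 5 of the 10 genes, Cbx7, Eed, Ezh2, Men1 and Suz12. Ezh2 had it at 3 places, the first bases of which lie 90, 64 and 11 bases before the start. The E-box CACGTG was in 7.15% of all promoters and in that of Bmi1. The RUNX letters TGTGGT were in 16.8% of all promoters and in those of Asxl1 and Ezh2. The PU.1 letters GAGGAAGT were in 3.2% of all promoters and in those of 0 of the 10 genes. Ezh1, Kmt2a and Dot1l had none of the 5. These are matches of letters in this window, and binding was not measured here.

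The catalytic subunits of PRC2 moved in opposite directions in Hox-URE. Ezh2 (ENSMUSG00000029687) is on the minus strand of chromosome 6 at chr6:47530139-47595341 (GRCm38, GENCODE M21). Its level was 135, 145 and 134 CPM for the Hox-WT libraries, 62.8, 75.1 and 59.9 CPM for Hox-URE, and 89.7, 102 and 102 CPM for URE-AML. Every Hox-URE library was below every URE-AML library, and every URE-AML library was below every Hox-WT library. Ezh2 was lower in Hox-URE than Hox-WT with a log2 fold change of -1.06 ± 0.10 (SE, adjusted p = 1.78e-05 by edgeR), a 2.09-fold difference. URE-AML lay between them. Against Hox-WT its log2 fold change was -0.49 ± 0.10 (adjusted p = 0.00204), and versus Hox-URE it was 0.57 ± 0.10 (adjusted p = 0.000879), so both passed the p threshold and neither reached a fold of 1.5. The second of these was called without Hox-URE replicate 2 (0.67) or without URE-AML replicate 1 (0.63).

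Ezh1 (ENSMUSG00000006920, chr11:101191115-101226463, minus strand), the alternative catalytic subunit, which predominates in cells that divide little, had the reverse order. Its level was 20.7, 20.0 and 25.8 CPM for Hox-WT, 44.1, 50.5 and 56.9 CPM for Hox-URE, and 24.7, 27.4 and 26.1 CPM for URE-AML. The Hox-URE libraries stood above all others, and those of Hox-WT and URE-AML overlapped. Ezh1 was 2.28-fold higher in Hox-URE than Hox-WT (log2 1.19 ± 0.13, adjusted p = 4.36e-05 by edgeR). It was lower in URE-AML than Hox-URE (-0.95 ± 0.13, adjusted p = 0.000145). URE-AML and Hox-WT did not differ beyond the spread between libraries (0.24 ± 0.13, adjusted p = 0.151).

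The ratio of Ezh2 to Ezh1 counts within a library does not depend on how libraries are scaled. It was 6.52, 7.26 and 5.18 for Hox-WT, 1.42, 1.49 and 1.05 for Hox-URE, and 3.63, 3.72 and 3.90 for URE-AML, with no overlap between any of the lines. The mean log2 ratio of Hox-URE minus that of Hox-WT was -2.26, a 4.79-fold lower ratio in Hox-URE. It was 1.52 higher in URE-AML than Hox-URE (2.87-fold), and the difference of URE-AML from Hox-WT was -0.74 (1.67-fold). Each comparison had p = 0.1 in a two-sided exact permutation test, the smallest p that 3 against 3 libraries allow. To compare the genes with each other, CPM were divided by the length of all merged exons. On that scale Ezh1 made up 12.6% ± 1.94 (SD, n = 3) of the Ezh1 and Ezh2 sum in Hox-WT, 40.8% ± 4.58 for Hox-URE and 19.3% ± 0.572 for URE-AML. With the longest transcript as length these shares were 9.64%, 33.7% and 15.0%. The sum of both genes was 23.6 ± 0.752 CPM per kb in Hox-WT, 16.7 ± 1.35 for Hox-URE and 18.2 ± 1.23 for URE-AML.

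Genes of DNA replication and the cell cycle, among which Ezh2 is usually found, were read beside it. The summed level of 16 proliferation genes was 5445 to 5844 CPM for Hox-WT, 4408 to 4844 CPM for Hox-URE and 4453 to 4977 CPM for URE-AML. Single genes had other orders than the sum. Mki67 averaged 274 CPM for Hox-WT, 282 CPM for Hox-URE and 510 CPM for URE-AML. Ccnb1 averaged 224, 454 and 229 CPM in the same order, whereas Mcm7 averaged 816, 433 and 509 CPM. For Hox-URE versus Hox-WT, calls among the 16 were 2 higher and 3 lower, beside 21.3% and 15.9% of all tested genes. The counts were 3 and 6 for URE-AML versus Hox-WT (23% and 20.2% of all tested genes), and 3 and 2 for URE-AML versus Hox-URE (20.3% and 22.4%). The part of proliferation in the level of Ezh2 or Ezh1 was not tested.

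Eed and Suz12, the noncatalytic core of PRC2, differed less. Eed (ENSMUSG00000030619, chr7:89954654-89980983, minus strand), which binds the methylated mark, was at 69.4, 56.5 and 63.5 CPM for Hox-WT, 53.7, 39.4 and 44.6 CPM for Hox-URE, and 55.0, 46.8 and 49.2 CPM for URE-AML. The Hox-WT libraries were the highest, and those of Hox-URE and URE-AML overlapped. Its log2 fold change in Hox-URE versus Hox-WT was -0.46 ± 0.13 (adjusted p = 0.0137 by edgeR), under the fold threshold, and it was called without Hox-URE replicate 1 (-0.60). In URE-AML it was -0.33 ± 0.13 versus Hox-WT (adjusted p = 0.0544) and 0.13 ± 0.13 versus Hox-URE (adjusted p = 0.416). Suz12 (ENSMUSG00000017548, chr11:79993106-80034123, plus strand), which holds the complex together, was at 114, 121 and 109 CPM for Hox-WT, 82.5, 93.7 and 81.8 CPM for Hox-URE, and 96.5 to 118 CPM for URE-AML. Hox-URE was the lowest line with no overlap, and URE-AML overlapped Hox-WT. Its log2 fold change was -0.42 ± 0.10 for Hox-URE versus Hox-WT (adjusted p = 0.0059) and 0.29 ± 0.10 for URE-AML versus Hox-URE (adjusted p = 0.032), both under the fold threshold. Per length, mean levels in Hox-WT were 23.2 CPM per kb for Suz12, 20.6 for Ezh2, 16.5 for Eed and 2.98 for Ezh1. With the longest transcript as length the order of the first 3 changed, to 49.4 for Ezh2, 30.5 for Eed and 26.2 for Suz12, and Ezh1 stayed lowest at 5.27.

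Bmi1 had the largest difference of the 10 genes between the Hox lines. Bmi1 (ENSMUSG00000026739, chr2:18677018-18686629, plus strand) was at 115, 109.6 and 100.5 CPM for Hox-WT, 31.7, 25.9 and 21.6 CPM for Hox-URE, and 54.8, 60.3 and 57.8 CPM for URE-AML. The 3 lines did not overlap, with Hox-WT highest, URE-AML in the middle and Hox-URE lowest. The log2 fold change was -2.03 ± 0.13 for Hox-URE versus Hox-WT (4.09-fold lower, adjusted p = 1.17e-06 by edgeR). In URE-AML it was -0.91 ± 0.13 versus Hox-WT (adjusted p = 0.000174) and 1.12 ± 0.13 versus Hox-URE (adjusted p = 4.83e-05). All 3 differences were called under every alternative run.

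Bmi1 is one of 6 PCGF genes, whose products define different PRC1 complexes. Per length of merged exons it made up 51.5% ± 1.03 (SD, n = 3) of the summed PCGF level in Hox-WT, 25.7% ± 1.67 for Hox-URE and 45.3% ± 1.40 for URE-AML. The sum was 52.8 ± 3.46, 25.8 ± 3.38 and 32.0 ± 0.582 CPM per kb. With the longest transcript as length the shares of Bmi1 were 41.9%, 19.2% and 36.2%. Among its paralogues, Pcgf5 was called lower in Hox-URE than Hox-WT (-0.66 ± 0.10, adjusted p = 0.000419), and Pcgf1, Pcgf2, Pcgf3 and Pcgf6 were not called there (-0.44 to -0.30). In URE-AML versus Hox-WT, Pcgf6 (-1.62 ± 0.16), Pcgf5 (-1.18 ± 0.10) and Pcgf2 (-0.99 ± 0.15) were called lower and Pcgf1 was called higher (0.85 ± 0.18). Pcgf1, the subunit of the PRC1 variant with BCOR, was 5.86% ± 1.02 of the PCGF sum in Hox-WT and 17.4% ± 1.84 for URE-AML.

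**Figure D2:**
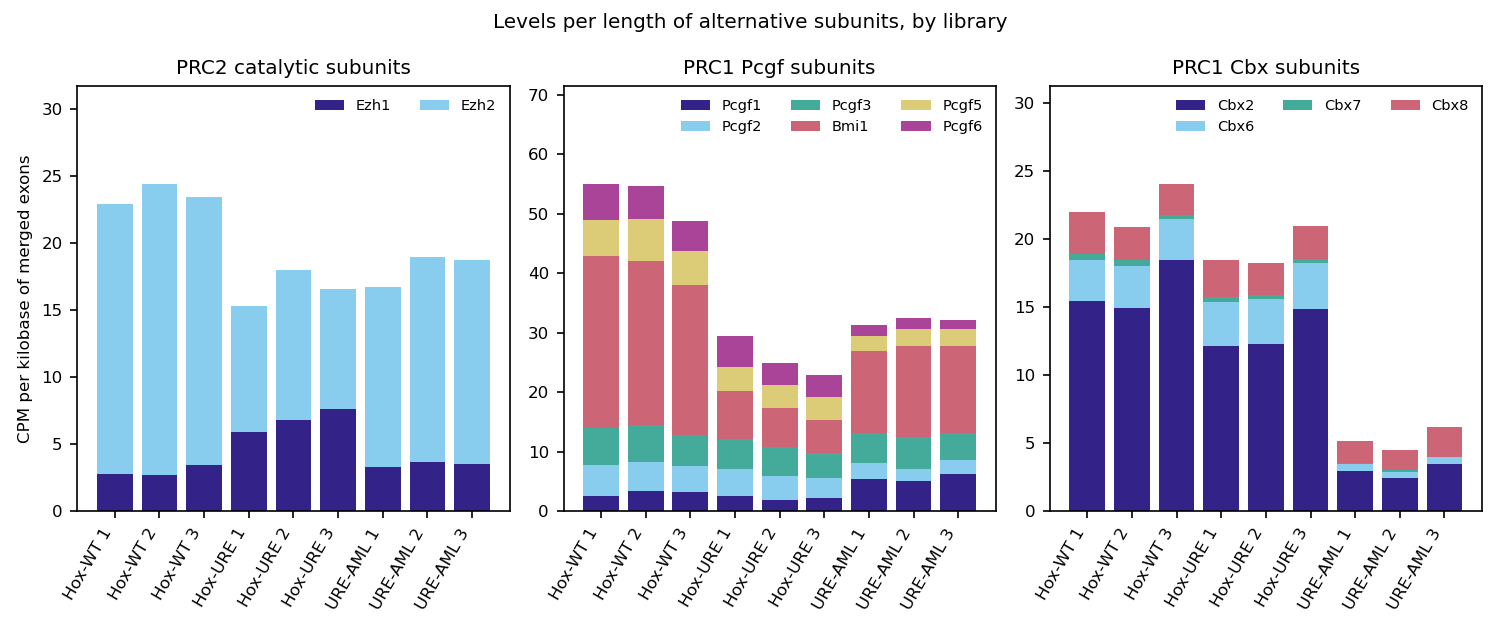
Stacked levels of genes that can take the same place in a complex, in CPM per kilobase of merged exons on axes that start at 0, with 1 bar per library. The Ezh1 part is largest in the 3 Hox-URE libraries, the Bmi1 part is largest in Hox-WT, and Cbx7 is a thin layer of 1.54% to 1.93% on average of the sum of Cbx2, Cbx6, Cbx7 and Cbx8.

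Cbx7 (ENSMUSG00000053411, chr15:79915807-79971119, minus strand), a reader of the PRC2 mark in PRC1, was the least abundant of the 10 genes. It had 72, 87 and 45 counts for Hox-WT, 57, 43 and 37 counts for Hox-URE, and 17, 19 and 6 counts for URE-AML. These counts correspond to means of 2.45, 1.92 and 0.616 CPM. Every URE-AML library was below every library of the Hox lines, which overlapped. Cbx7 was lower in URE-AML than Hox-WT (-1.99 ± 0.44, adjusted p = 0.00279 by edgeR) and than Hox-URE (-1.64 ± 0.44, adjusted p = 0.00879). The Hox lines did not differ beyond the spread between libraries (-0.35 ± 0.40, adjusted p = 0.481). At this depth the errors of Cbx7 were the widest of the 10 genes. The gene shares 100 bases of exon with Apobec3 on the opposite strand, which had 3057 to 3875 counts for Hox-WT, 711 to 910 for Hox-URE and 439 to 624 for URE-AML. Whether strand was used when reads were assigned is not given in the sources used here, and the part of Apobec3 reads in the level of Cbx7 was not tested. Ezh2, Eed, Suz12, Asxl1 and Kmt2a share 174 to 378 bases of exon with noncoding genes on the opposite strand, and those beside Eed, Asxl1 and Kmt2a had at most 55 counts in any library. Of the 510 tested genes on chromosome 15, the median log2 fold change was 0.34 for Hox-URE versus Hox-WT, 0.00 for URE-AML versus Hox-WT and -0.38 for URE-AML versus Hox-URE. The last of these has the direction of the Cbx7 difference, and the part of the chromosome in it was not tested.

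Cbx7 was set beside 3 other genes for readers of the PRC2 mark, Cbx2, Cbx6 and Cbx8. Per length of merged exons, Cbx7 was 1.73% ± 0.662 (SD, n = 3) of the sum of these 4 genes in Hox-WT, 1.54% ± 0.174 for Hox-URE and 1.93% ± 1.23 for URE-AML, shares that overlapped within their SD. The sum itself was 22.3 ± 1.59 CPM per kb in Hox-WT, 19.2 ± 1.48 for Hox-URE and 5.29 ± 0.862 for URE-AML. Cbx2 made up 72.8% ± 3.38 of it in Hox-WT and 55.9% ± 1.60 for URE-AML, and its log2 fold change between these lines was -2.46 ± 0.15 (adjusted p = 3.9e-07). Cbx6 was also called lower in URE-AML than Hox-WT (-2.66 ± 0.11, adjusted p = 1.84e-08), and Cbx8 was not called (-0.56 ± 0.19).

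Asxl1 (ENSMUSG00000042548, chr2:153345829-153404007, plus strand) was highest in Hox-WT and lowest in URE-AML. Its level was 158, 139 and 141 CPM for Hox-WT, 108, 113 and 114 CPM for Hox-URE, and 96.9, 94.2 and 95.4 CPM for URE-AML. The 3 lines did not overlap. The log2 fold change was -0.39 ± 0.08 for Hox-URE versus Hox-WT (adjusted p = 0.00222 by edgeR), under the fold threshold. In URE-AML versus Hox-WT it was -0.61 ± 0.08 (adjusted p = 9e-05), a fold of 1.53 that just passed the threshold, and the call was lost without Hox-WT replicate 1 (-0.55). Between URE-AML and Hox-URE it was -0.22 ± 0.08 (adjusted p = 0.0324). Asxl1 was 90.8% ± 0.813 (SD, n = 3) of the level per length of the ASXL genes in Hox-WT, 89.4% ± 0.449 for Hox-URE and 85.1% ± 0.568 for URE-AML. Asxl2, the other family member measured above the filter, had log2 fold changes of -0.15 to 0.33 in the 3 comparisons and was not called. Asxl3 had 1 count in all 9 libraries together.

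Kmt2a (ENSMUSG00000002028, chr9:44803355-44881296, minus strand) was lower in URE-AML than either Hox line. Its level was 22.4, 27.0 and 21.5 CPM for Hox-WT, 28.2, 23.9 and 20.3 CPM for Hox-URE, and 10.6, 13.0 and 14.7 CPM for URE-AML. The URE-AML libraries were below all others, and the Hox lines overlapped fully. The log2 fold change of URE-AML was -0.89 ± 0.17 versus Hox-WT (adjusted p = 0.00102 by edgeR) and -0.92 ± 0.17 versus Hox-URE (adjusted p = 0.000839). Between the Hox lines it was 0.03 ± 0.16 (adjusted p = 0.886), with no stable direction, since it was -0.01 without Hox-WT replicate 1, -0.04 without Hox-WT replicate 3 and -0.10 without Hox-URE replicate 1. Per length, Kmt2a was a small part of the H3K4 methyltransferase genes Kmt2a to Kmt2d, Setd1a and Setd1b, at 5.74% ± 0.709 (SD, n = 3) of their sum in Hox-WT, 6.54% ± 0.843 for Hox-URE and 3.35% ± 0.643 for URE-AML. In URE-AML versus Hox-URE, Kmt2c (-0.60 ± 0.12) and Kmt2d (-0.61 ± 0.18), which act at enhancers, were also called lower, whereas Kmt2b, Setd1a and Setd1b had values of 0.23 to 0.47 and were not called. In URE-AML versus Hox-WT none of these 5 paralogues was called, with log2 fold changes of -0.42 to 0.23.

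Men1 and Dot1l were not called in any comparison. Men1 (ENSMUSG00000024947, chr19:6334979-6340891, plus strand), the gene of menin, was at 115, 127 and 110.3 CPM for Hox-WT, 96.9, 99.2 and 97.7 CPM for Hox-URE, and 89.5, 99.2 and 90.7 CPM for URE-AML. Hox-WT was the highest line without overlap, and the other lines overlapped each other. Its log2 fold changes were -0.26 ± 0.08 for Hox-URE (adjusted p = 0.0223 by edgeR) and -0.33 ± 0.08 for URE-AML (adjusted p = 0.0058), both versus Hox-WT. Dot1l (ENSMUSG00000061589, chr10:80755206-80795461, plus strand) was at 54.9, 61.4 and 55.2 CPM for Hox-WT, 55.7, 51.3 and 46.0 CPM for Hox-URE, and 74.1, 69.0 and 66.2 CPM for URE-AML. The URE-AML libraries were above all others. Dot1l was the only one of the 10 genes with its highest level in URE-AML, with a log2 fold change of 0.29 ± 0.10 versus Hox-WT (adjusted p = 0.0298) and 0.45 ± 0.10 versus Hox-URE (adjusted p = 0.00297), a fold of 1.37.

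**Figure D3:**
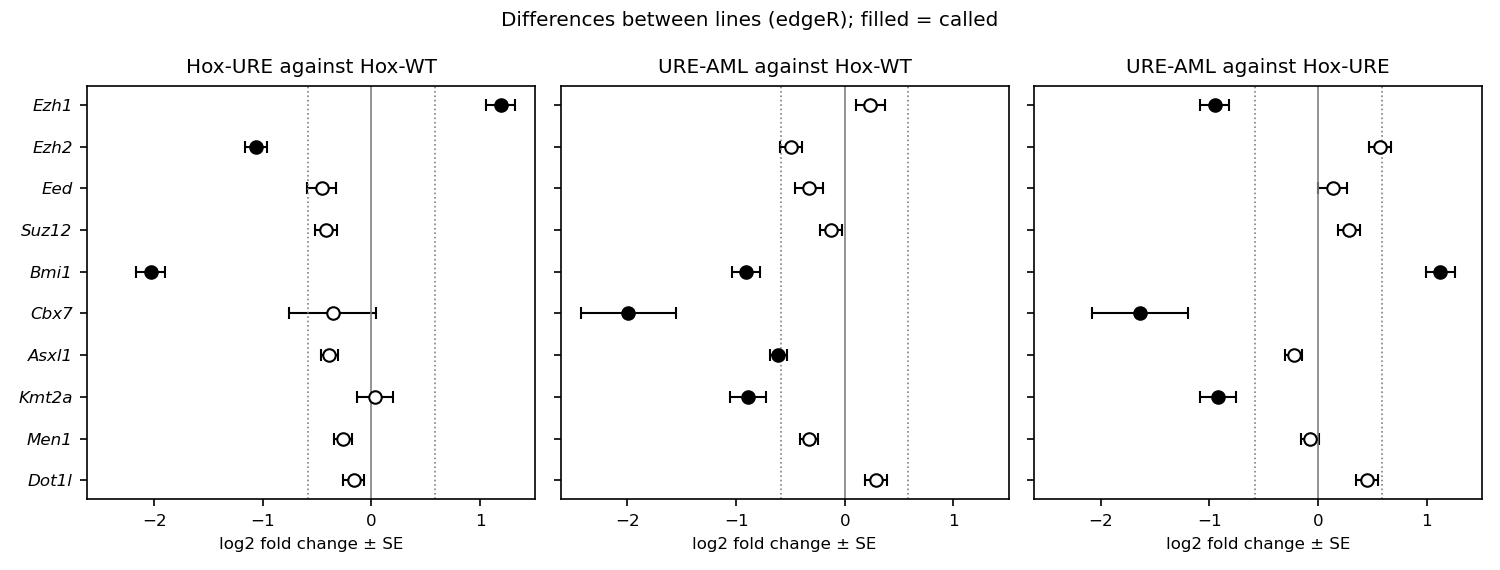
Log2 fold changes of the 10 genes in the 3 comparisons, with error bars of 1 SE from the edgeR fit. Filled points were called, and dotted lines mark a fold of 1.5. Bmi1 lies at -2.03, -0.91 and 1.12 from left to right, and Dot1l stays within the dotted lines in every panel.

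The complexes of these genes were read from 7 lists with 76 further genes, of which 75 were tested and Asxl3 was not. Calls numbered 9 higher and 9 lower for Hox-URE versus Hox-WT, 7 and 10 for URE-AML versus Hox-WT, and 11 and 18 for URE-AML versus Hox-URE. These 18, 17 and 29 calls of 75 genes are to be read against the 37.2%, 43.2% and 42.7% of all tested genes called, and the medians of the 75 genes were -0.06, 0.00 and 0.12.

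Other PRC2 genes listed were the core partners Rbbp4 and Rbbp7, which bind histones, and 6 accessory subunits, which guide the complex to chromatin. Rbbp4 and Rbbp7 were called in none of the 3 comparisons (-0.58 to 0.41 and -0.33 to 0.22 on the log2 scale). For Hox-URE versus Hox-WT, 1 of these 8 genes was called higher and 3 were lower, all of them accessory subunits. Phf1, a subunit of the PRC2.1 form, was higher (2.33 ± 0.32, adjusted p = 0.00016). Its level was low, at means of 0.871 CPM for Hox-WT and 4.41 CPM for Hox-URE. Epop (-1.41 ± 0.17), Jarid2 (-0.64 ± 0.16) and Mtf2 (-0.61 ± 0.10) were lower, and Mtf2 averaged 121 and 79.5 CPM in these lines. In URE-AML versus Hox-WT, Epop alone of the 8 genes was called (-1.50 ± 0.17). In URE-AML versus Hox-URE, Jarid2, a subunit of the PRC2.2 form, was higher (1.12 ± 0.16) and Phf1 was lower (-1.90 ± 0.31).

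The 21 PRC1 genes had 4 called higher and 4 lower in Hox-URE versus Hox-WT, beside 21.3% and 15.9% of all tested genes. The counts were 3 and 7 for URE-AML versus Hox-WT (23% and 20.2% of all tested genes). For URE-AML versus Hox-URE they were 5 and 8 (20.3% and 22.4%). Bcor, the corepressor in the PRC1 variant with PCGF1, was higher in both UREd/d lines, relative to Hox-WT (1.83 ± 0.10 for Hox-URE, adjusted p = 3.3e-07, and 1.63 ± 0.10 for URE-AML, adjusted p = 3.67e-07). Of 9 tested PR-DUB genes, 0 were called in Hox-URE versus Hox-WT and 1 in each comparison with URE-AML. The shares of all tested genes called were 37.2% for the Hox lines, and 43.2% and 42.7% for URE-AML versus Hox-WT and Hox-URE. By edgeR's adjusted p at any fold, 2, 3 and 7 passed, where 53%, 57.7% and 58% of all tested genes did. The called gene was Foxk1, which encodes a forkhead factor that binds BAP1, at 1.05 ± 0.08 versus Hox-WT and 1.08 ± 0.08 versus Hox-URE. Kdm6b, an eraser of the PRC2 mark, was called higher in URE-AML than Hox-URE (0.74 ± 0.21, adjusted p = 0.0132). Uty, the Y-linked relative of the eraser Kdm6a, had 578, 558 and 514 counts for the Hox-URE libraries and 0 in all libraries of the other lines. From a floor of 3 counts per library, it was at least 218-fold higher in Hox-URE than Hox-WT. URE-AML was at least 179-fold below Hox-URE. The sex of the donor mice is not given in the sources used here. Whether the other lines lack a Y chromosome was not tested, for Uty or for the other genes compared. Uty is among the 9 genes called higher in Hox-URE versus Hox-WT and the 18 called lower in URE-AML versus Hox-URE.

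Of 15 genes of the MLL/COMPASS list, 1, 1 and 5 were called in the same order, beside 37.2%, 43.2% and 42.7% of all tested genes. Ash2l, a core subunit of all these methyltransferases, was higher in URE-AML than Hox-WT (1.13 ± 0.09, adjusted p = 2.03e-06), in contrast to Kmt2a. Rbbp5, another core subunit, was higher in Hox-URE than Hox-WT (0.89 ± 0.18), and Wdr5 was higher in URE-AML than Hox-URE (0.71 ± 0.10). Of 12 genes of DOT1L and the super elongation complex, calls were 2 higher and 2 lower in each comparison with Hox-WT. Beside them, 21.3% and 15.9% of all tested genes were called for Hox-URE, and 23% and 20.2% for URE-AML. In URE-AML versus Hox-URE, 5 of the 12 genes were called lower, beside 22.4% of all tested genes. Mllt3 (AF9), which recruits DOT1L and is a fusion partner of KMT2A, was lower in Hox-URE (-0.71 ± 0.22, adjusted p = 0.0209) and further in URE-AML (-2.58 ± 0.24, adjusted p = 7.58e-06), both versus Hox-WT. Ell2, an elongation factor, was higher in both (2.87 ± 0.26 and 2.82 ± 0.26). Eaf1, a partner of ELL proteins, was higher in Hox-URE (1.25 ± 0.24), and Mllt6, a further KMT2A fusion partner, was lower in URE-AML (-0.70 ± 0.12). Of 7 other leukemia chromatin regulators, Crebbp alone was called, higher in URE-AML than Hox-URE (0.81 ± 0.28, adjusted p = 0.0288). In that comparison 20.3% of all tested genes were called higher.

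**Figure D4:**
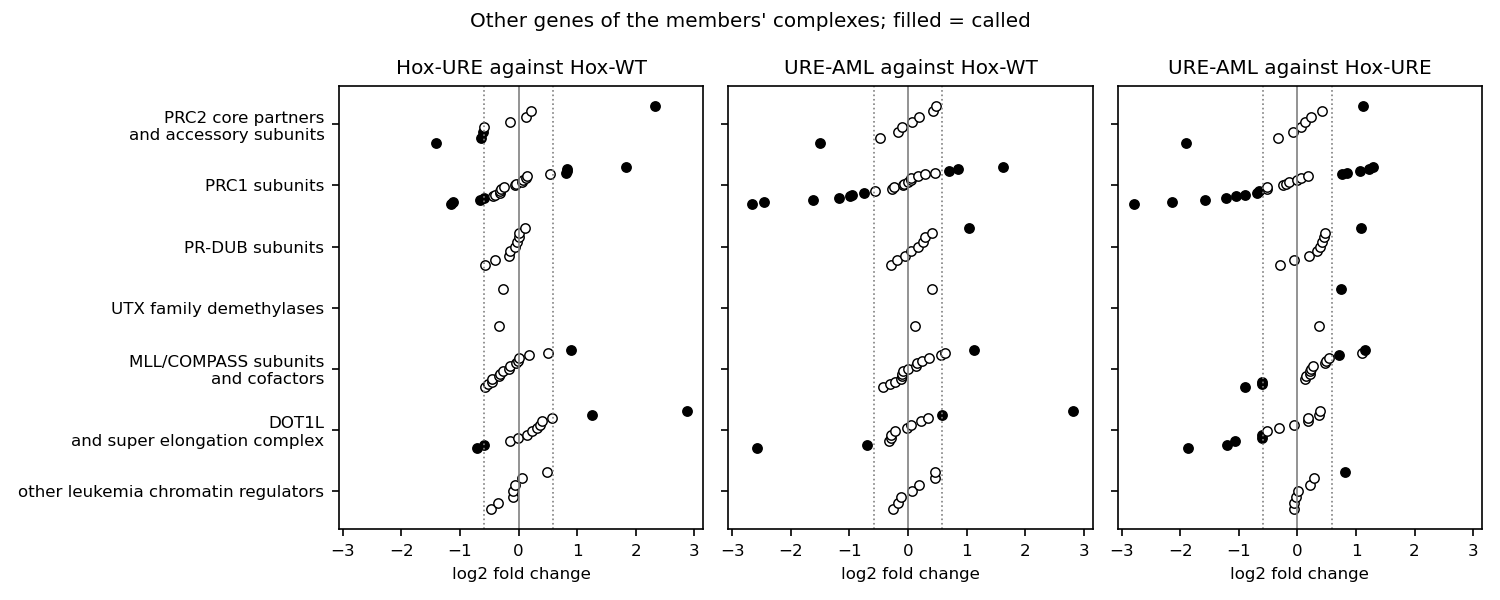
Log2 fold changes of the other genes of the complexes by list, 1 point per tested gene, with called genes filled and dotted lines at a fold of 1.5. Uty is left out because it is at 0 in the other lines. In the PRC1 list, the longest, 8, 10 and 13 of 21 genes are filled, where 37.2%, 43.2% and 42.7% of all tested genes were called.

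Genes known to be controlled by Polycomb or by MLL1 with menin and DOT1L were read as well. Of the 9 listed, 4 were tested. Cdkn2a, which encodes cell cycle inhibitors and is a classical target repressed by BMI1, was at 8.62, 11.8 and 11.9 CPM for Hox-WT, 10.1, 18.5 and 25.4 CPM for Hox-URE, and 0.444, 0.571 and 0.601 CPM for URE-AML. The Hox lines overlapped and URE-AML was far below both. Its log2 fold change was 0.74 ± 0.29 for Hox-URE versus Hox-WT (adjusted p = 0.0536 by edgeR), which was not called, and -4.31 ± 0.38 for URE-AML versus Hox-WT (adjusted p = 5.59e-06). Cdkn2b, the neighbouring inhibitor gene, was at 0.179 to 0.262 CPM for Hox-WT, 8.27, 8.12 and 11.6 CPM for Hox-URE, and 0.0808 to 0.343 CPM for URE-AML. It was higher in Hox-URE than either other line, by 5.40 ± 0.42 on the log2 scale versus Hox-WT (adjusted p = 3.62e-06), and the other lines overlapped.

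Meis1, a HOX cofactor kept on by MLL1 and menin, was at 10.8, 9.11 and 11.7 CPM for Hox-WT and 5.24, 8.12 and 13.0 CPM for Hox-URE, and had 0, 1 and 1 counts for URE-AML. The summed counts of 879 for Hox-WT and 2 for URE-AML gave a 363-fold ratio, with an exact 95% interval of 100.3 to 3004 for counting error. Pbx3, another HOX cofactor, was at 27.4, 28.0 and 25.5 CPM for Hox-WT, 30.2, 34.8 and 33.9 CPM for Hox-URE, and 14.2, 17.2 and 13.8 CPM for URE-AML. It was called lower in URE-AML than Hox-WT (-0.84 ± 0.12, adjusted p = 0.000137) and than Hox-URE (-1.13 ± 0.12, adjusted p = 1.89e-05). Hoxa5, Hoxa9 and Hoxa10 were at 0 counts in all 9 libraries. Hoxa7 had 4 counts in 1 Hox-WT library and 0 elsewhere, and Mef2c had 0 to 22 counts and did not pass the filter.

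**Figure D5:**
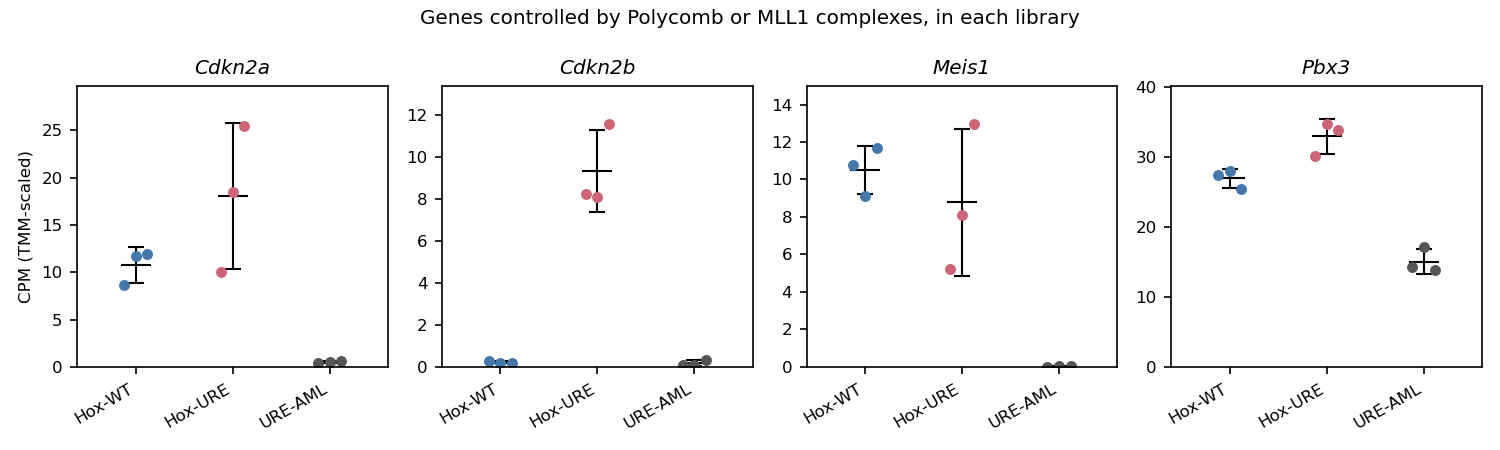
Levels of the 4 tested target genes in each library, in CPM after TMM scaling on axes that start at 0. Points are libraries (3 per line), long bars are line means and error bars are 1 SD. Cdkn2b is high only in the Hox-URE libraries (8.12 to 11.6 CPM), and Cdkn2a, Meis1 and Pbx3 are lowest in URE-AML.

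For the genes with the widest range between lines, the tested genes with the most similar profile were listed among 8616 genes with a mean of at least 10 CPM, by Pearson's r of log2 CPM over the 9 libraries. Since the 9 libraries are 3 lines, r mostly reflects the order of the line means and is given as a description. Bmi1 was most like Kit (r = 0.996), Enkd1 (0.994) and Mpo (0.993). Kit, the receptor of SCF, averaged 175 CPM for Hox-WT, 43.0 CPM for Hox-URE and 97.0 CPM for URE-AML, the same order as Bmi1, and Mpo, a granule enzyme of myeloid progenitors, averaged 5042, 5.04 and 192 CPM. Ezh1 was most like Arhgap26 (0.990), H2-T23 (0.980) and Rabac1 (0.980), all with their highest mean in Hox-URE. Cbx7 was most like Zzz3 (0.969), Abl2 (0.950) and Qser1 (0.949), all lowest in URE-AML.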

How the data were processed

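PolyA RNA of the 3 lines was sequenced in 3 stranded libraries each. Salmon (version not given in the sources used here, genome build GRCm38 per the labels) and tximport were used by the authors, and the table they deposited lists an estimated count for each gene, rounded to whole numbers. The transcriptome release, the use of strand and any scaling for transcript length are not given in the sources used here, so a change in transcript use can alter a count. Groups came from the labels. The 10 genes, the other gene lists and the tests were chosen with earlier results of these data known.

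A quasi-likelihood model with a term for line alone was fitted in edgeR 4.0.16 (R 4.3.3) to the 9 libraries together, with TMM factors (0.938 to 1.04) and filterByExpr at a minimum count of 10, which set aside 0.0499% of counts and left 13082 genes. The common biological coefficient of variation was 0.173. Tests were two-sided, and each SE was obtained from the fold change and its F statistic. Genes were called at an adjusted p under 0.05 (Benjamini-Hochberg over all tested genes) and a fold over 1.5, as in the study. The study used DESeq2, which is an alternative here (1.42.0). Libraries of a line differed by more than sampling noise (chi-square per degree of freedom of 18.4 to 102), so none was counted as a duplicate. In data drawn for Hox-URE versus Hox-WT with known answers (12784 genes), 60% of 100 genes changed 2-fold and 87% of 100 genes changed 4-fold were called in the right direction, with 11 unchanged genes called.

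Named genes were all 10 genes in every comparison, their paralogues, up to 4 called genes per list with the largest change, the target genes, Spi1, Hoxb8, and the genes most like the 3 with the widest range. A gene of that rule is not reported here and is left out of the sums of paralogues. Markers, Apobec3, Rbbp4 and Rbbp7 are named beyond that rule, after their values were seen. GENCODE M21, which holds 54094 of the 54347 identifiers, gave lengths, coordinates and overlaps, and RefSeq gave promoters. Alternatives were other scalings (DESeq2-style, upper-quartile, library size only), no filter, a stricter filter of 10 counts in each library, a fit to the 6 libraries of a comparison, a replicate block, DESeq2, no fold threshold, glmTreat, each library left out, 1 count added to both genes of the Ezh2 to Ezh1 ratio, and the longest transcript as length. Figures were drawn with matplotlib 3.10.9.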

Additional observations from a re-analysis of the deposited data

How the results depend on the processing

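Of 567 values of the 10 genes under the alternatives, 545 kept their direction and their side of the thresholds. Calls were lost for Asxl1 in URE-AML versus Hox-WT, without Hox-WT replicate 1 (-0.55) and under glmTreat (adjusted p = 0.376, in a range over its alternatives from 1.83e-12). Reversed values were those of Kmt2a in Hox-URE versus Hox-WT (-0.072 with library size only, and -0.10 to 0.14 over the left-out libraries, including -0.0062 and -0.045 without Hox-WT replicates 1 and 3) and of Men1 in URE-AML versus Hox-URE (0.039 with library size only). None of these was called, and the cause was not tested.

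Without the fold threshold, 7, 7 and 8 of the 10 genes were called in Hox-URE versus Hox-WT, URE-AML versus Hox-WT and URE-AML versus Hox-URE, and 34, 29 and 47 of the other pathway genes, since that rule alone admits smaller changes. It was passed by 53%, 57.7% and 58% of all tested genes. Under glmTreat 10 pathway genes were called in Hox-URE versus Hox-WT and 19 in URE-AML versus Hox-URE. Leaving out each library gave 3 to 4, 3 to 4 and 4 to 5 of the 10 genes, 19 to 23, 16 to 19 and 24 to 30 pathway genes, and differences in the log2 ratio of Ezh2 to Ezh1 of -2.40 to -2.10, -0.88 to -0.63 and 1.36 to 1.61. Library size only moved the median of all genes to -0.08 in Hox-URE versus Hox-WT and 0.11 in URE-AML versus Hox-URE, and the share of higher calls from 57.2% to 49.6% and from 47.6% to 54.9% (Ezh2 was then called in the latter, at 0.68).

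The main fit did not pair libraries by replicate number. Deviations of same-numbered libraries correlated at 0.00135 to 0.204 and those of other pairs at -0.163 to 0.0546. Between Hox-URE and each other line, every same-numbered pair was above every other pair, which did not hold between URE-AML and Hox-WT. Whether the numbers mark a shared batch was not tested. With the replicate block, 3, 4 and 4 of the 10 genes and 18, 17 and 29 pathway genes were called, as without it. Cbx7 had no value with at least 10 counts in every library, because URE-AML 3 had 6.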
